A study of Mus musculus with 8 samples.

Results

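The acrosome and sperm-egg fusion genes examined here were 45 listed mouse genes, and 45 of 45 were found by symbol among the 55414 genes of the deposited FPKM table. They were taken by name, without use of their values, and sorted by role into 17 genes of acrosomal content, 5 of acrosome assembly, 15 of sperm ADAMs and proteases with their partners, and 8 fusion factors. The samples were mouse testes labelled control (4 samples) or valine (4 samples), valine being a branched-chain amino acid. The sources used here do not give genotype, strain, age, dose, route or length of treatment, what the controls received, or if 1 animal gave 1 sample. P-values thus cover the spread among samples alone, and that spread could be technical. FPKM, the unit of every level below, counts fragments relative to gene length and library size, and the read depth behind the values was unknown.

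The acrosome is a vesicle derived from the Golgi that caps the nucleus of the sperm. It forms in round spermatids, the haploid cells after meiosis, and its enzymes and matrix are released before the sperm crosses the zona pellucida, the coat of the egg. ADAM proteins are membrane proteins with metalloprotease-like and disintegrin domains, several of which are processed during sperm maturation and are needed for migration into the oviduct and for zona binding. A separate group of sperm membrane proteins, among them IZUMO1, acts when the membranes of sperm and egg adhere and fuse.

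With valine 8 of the 45 transcripts rose and 1 fell, by 0.23 to 0.39 on the log2 scale. The 8 that rose were Acrbp, Crisp2, Lyzl4, Spaca7 and Zpbp2 of the acrosomal content, Ly6k and Prss21 among the proteases and ADAM partners, and Izumo4 among those listed as fusion factors. The 1 that fell was Adam1a. A change was called at a limma adjusted p below 0.05 on log2(FPKM + 1) over the 22077 genes whose mean reached 1 FPKM, all 45 members included. In that test 8.73% of all tested genes changed, 4.32% higher and 4.41% lower with valine, against 17.8% and 2.22% of the members. At an unadjusted limma p below 0.05, 14 members were higher and 1 lower, against 13.8% and 11.8% of all tested genes. The median log2 change was 0.14 over the members, with 36 of 45 positive, and 0.02 over all tested genes, with 11835 of 22077 positive.

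The members were far more abundant than most genes, and abundant genes of these testes were higher more often. Of 1813 tested genes whose mean reached 100 FPKM, 26.2% were called higher and 3.03% lower, with a median log2 change of 0.16. Of the 35 members in that range, 6 (17.1%) were called higher and 1 (2.86%) lower, with a median of 0.14. The share of members called higher was thus above that of all genes and not above that of genes as abundant. The groups did not overlap, with every valine sample above every control sample, for 11 members (8.99% of all tested genes), and in the reverse direction for 1 (9.39% of all tested genes).

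**Figure D1:**
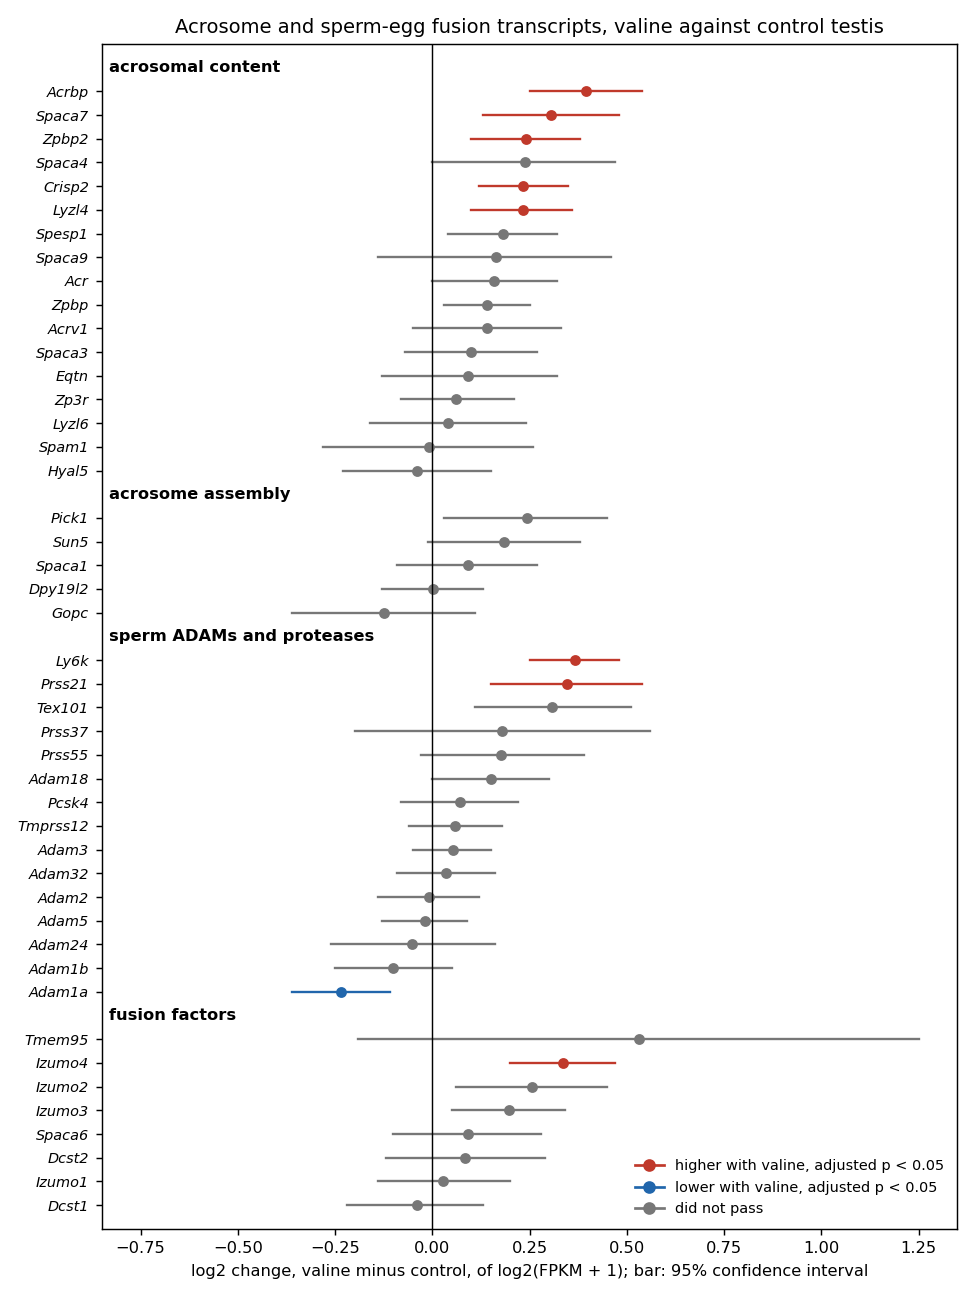
Fitted log2 change of each of the 45 genes (horizontal axis, valine minus control on log2(FPKM + 1); points) with its 95% confidence interval (bars), grouped by role; red marks the 8 that rose, blue the 1 that fell and grey those that did not pass. Most intervals are narrow and lie near 0, and Tmem95 has the widest, from -0.19 to 1.25.

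The count of rises differed with the scaling of the samples. FPKM totals were 1027662 to 1070524 in valine and 944659 to 974626 in control samples. Rescaling to equal totals moved the median of all genes from 0.02 to -0.08 and that of the members from 0.14 to 0.024. Then 2 members, Acrbp and Ly6k, were higher (1.64% of all genes) and 1, Adam1a, was lower (9.16% of all genes; 10.8% in either direction). After quantile normalisation Acrbp and Ly6k were again higher (1.80% of all genes), and Adam1a and Adam5 were lower (4.66% of all genes; 6.46% in either direction). With a trend on exon length taken out, 4 were higher, namely Acrbp, Ly6k, Izumo4 and Crisp2 (3.0% of all genes), and 0 were lower (3.02% of all genes; 6.02% in either direction). Leaving out 1 sample left 3 to 7 members higher: 3 without control replicate 1 or valine replicate 1, 4 without control replicate 2 or valine replicate 2, 5 without control replicate 3, control replicate 4 or valine replicate 4, and 7 without valine replicate 3. With the replicate number as a block 5 were higher and 0 lower.

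Among the proteins stored in the acrosome, Acrbp showed the largest change. Acrbp encodes the proacrosin-binding protein, which holds the precursor of acrosin in the granule and regulates its activation. Its FPKM was 118.6, 114.5, 133.1 and 110.5 in control replicates 1 to 4 and 162.8, 153.5, 158.9 and 151.1 in valine replicates 1 to 4. All 4 valine samples lay above all 4 control samples. The mean was 119.2 ± 9.85 in control and 156.6 ± 5.29 in valine testes (SD, n = 4 per group), a log2 change of 0.39 ± 0.0627 (SE; limma adjusted p = 0.00994). It passed in each of the 8 fits with 1 sample left out. Of its exon length 29.8% lies in exons of Gm44597 on the same strand, a gene at 1.64 FPKM. Acr itself, the gene of acrosin, the main serine protease of the granule, had 272.5 to 324.5 FPKM in control and 315.5 to 362.1 FPKM in valine samples, and the groups overlapped (log2 change 0.16, 95% interval -0.00 to 0.32, limma adjusted p = 0.209). The ratio of Acrbp to Acr was 0.348 to 0.42 in control and 0.45 to 0.495 in valine samples. That difference had p = 0.0286 in a two-sided exact permutation test over 70 arrangements, the smallest p they can give, and an adjusted p of 0.152 over the 8 partner pairs compared. With that smallest p and 8 pairs, 1 pair alone could not reach an adjusted p below 0.05. The adjusted p of a ratio, here and below, thus cannot decide if that ratio differed.

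Crisp2 was the most abundant member, with a mean of 1651 FPKM and rank 49 among the tested genes. It encodes a cysteine-rich secretory protein found in the acrosome and in the sperm tail. Its FPKM was 1474.6, 1433.4, 1635.4 and 1533.1 in control and 1749.0, 1726.7, 1847.1 and 1810.8 in valine samples. The groups did not overlap, and the mean was 17.4% higher with valine (log2 change 0.23 ± 0.0496 SE, limma adjusted p = 0.0262). The change was -0.017 after quantile normalisation (limma adjusted p = 0.83) and did not pass with equal totals (0.141). It also did not pass without control replicate 1 or 2 or without valine replicate 1, 3 or 4 (limma adjusted p up to 0.0787).

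The other acrosomal genes that rose were a lysozyme-like gene, a gene of a protein released from the acrosome and a zona-binding gene. Lyzl4, of the sperm lysozyme-like family, had 96.7, 88.1, 97.9 and 100 FPKM in control and 118.4, 110.4, 106.0 and 115.7 FPKM in valine samples (log2 change 0.23 ± 0.057 SE, limma adjusted p = 0.0414). Spaca7, whose protein is released in the acrosome reaction, had 142.4, 125.7, 146.5 and 151.5 FPKM in control and 186.7, 178.9, 156.1 and 178.9 FPKM in valine samples (log2 change 0.31 ± 0.0758 SE, limma adjusted p = 0.0432). Zpbp2, a zona pellucida binding protein of the acrosomal matrix, had 344.3, 353.9, 367.6 and 348.6 FPKM in control and 432.9, 408.9, 458.2 and 376.8 FPKM in valine samples (log2 change 0.24 ± 0.0619 SE, limma adjusted p = 0.0479). In each of the 3 the groups did not overlap, with a small gap between the nearest samples. With 1 sample left out, Lyzl4 passed only without valine replicate 3 (limma adjusted p = 0.0461, otherwise up to 0.109), Spaca7 only without valine replicate 3 (0.0321, otherwise up to 0.111) and Zpbp2 only without valine replicate 4 (0.0252, otherwise up to 0.12). None of the 3 passed with equal totals, quantile normalisation, the length trend removed or the replicate block (for Lyzl4 0.2, 0.137, 0.181 and 0.07; for Spaca7 0.133, 0.125, 0.156 and 0.0859; for Zpbp2 0.284, 0.552, 0.158 and 0.06).

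The remaining 12 genes of acrosomal content did not pass, and 10 of them had a positive change. Zpbp, the close relative of Zpbp2, had 103.9 to 111.4 FPKM in control and 114.1 to 128.2 FPKM in valine samples; the groups did not overlap but the test was not passed (limma adjusted p = 0.12). The hyaluronidases Spam1 and Hyal5, which digest the matrix between the cumulus cells, are neighbours on chromosome 6. Spam1 had 80.6, 82.8, 109.1 and 73.0 FPKM in control and 84.7, 92.0, 85.7 and 77.8 FPKM in valine samples, a log2 change of -0.008 with a 95% interval of -0.28 to 0.26. Hyal5 had a log2 change of -0.039 (-0.23 to 0.15). Control replicate 3 was the highest sample for Spam1, while valine replicate 3 was the lowest for Hyal5 with 115.9 FPKM. Spesp1 and Eqtn, proteins of the equatorial segment and acrosomal membrane, had changes of 0.18 (0.04 to 0.32) and 0.093 (-0.13 to 0.32). Acrv1 (0.14, -0.05 to 0.33), the lysozyme-like Spaca3 (0.099, -0.07 to 0.27) and Lyzl6 (0.04, -0.16 to 0.24) and the matrix protein gene Zp3r (0.062, -0.08 to 0.21) all had intervals that included 0. Spaca4, a Ly6-type surface protein used in zona binding, had 195.0 to 223.6 FPKM in control and 199.6 to 283.8 FPKM in valine samples, and passed only without valine replicate 3 (limma adjusted p = 0.197 with all samples, 0.039 without it). Spaca9, whose protein is also found on the microtubules of the axoneme, was the fourth most abundant member at 701 FPKM and ran from 588.7 to 735.3 FPKM in control and from 598.1 to 935.7 FPKM in valine samples.

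**Figure D2:**
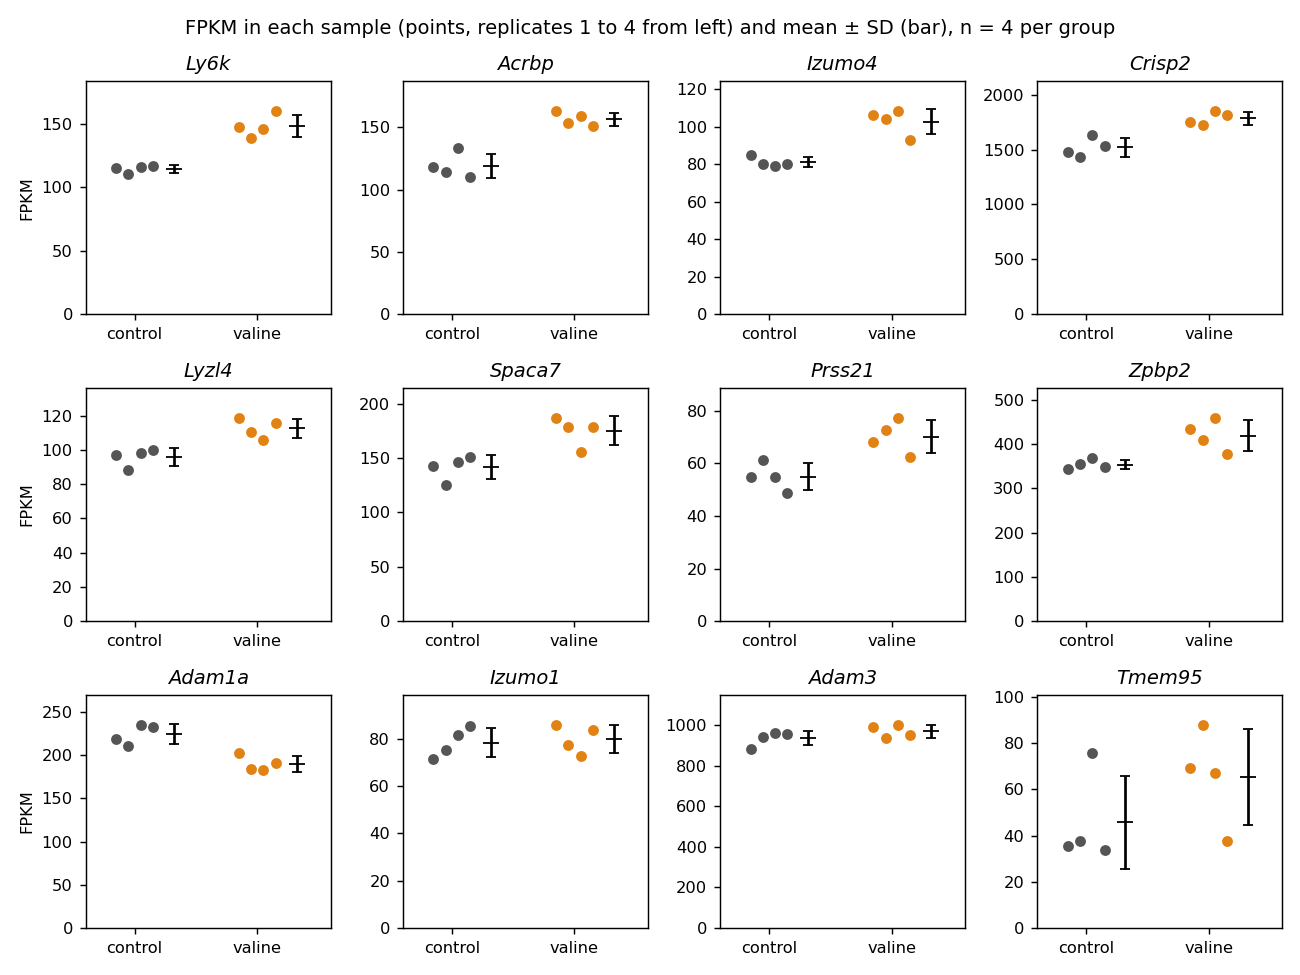
FPKM (vertical axes, from 0) of the 9 genes that changed and of Izumo1, Adam3 and Tmem95 in each of 4 control (grey) and 4 valine (orange) samples, with mean ± SD as black bars. The valine points lie above the control points for the 8 that rose and below them for Adam1a, by small steps relative to the level of each gene.

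None of the 5 acrosome assembly genes passed in limma, and 1, Pick1, had an unadjusted p below 0.05. Spaca1, an acrosomal membrane protein needed for the shape of the cap, had 256.9, 261.2, 296.0 and 297.4 FPKM in control and 308.5, 301.6, 259.9 and 316.2 FPKM in valine samples. Valine replicate 3 was as low as the lower control samples, and the log2 change was 0.093 (95% interval -0.09 to 0.27). Dpy19l2, an inner nuclear membrane protein that anchors the acrosome to the nucleus, had 162.8, 172.3, 184.0 and 170.3 FPKM in control and 174.3, 165.7, 186.4 and 163.7 FPKM in valine samples. The 2 groups covered nearly the same range, and the log2 change was 0.001 (-0.13 to 0.13). Sun5, which couples the sperm head to the tail, had a change of 0.19 (-0.01 to 0.38). Gopc and Pick1, partners in the transport of Golgi vesicles to the forming acrosome, are also made by many other cells and were the least abundant members. Gopc had 7.90 to 9.54 FPKM in control and 6.91 to 9.35 FPKM in valine samples (change -0.12, -0.36 to 0.11), and Pick1 had 9.43 to 11.4 and 11.1 to 13.6 FPKM (change 0.24, 0.03 to 0.45, limma adjusted p = 0.144).

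Among the ADAM genes only Adam1a changed, and it was the only member that fell. Adam1a encodes a fertilin alpha subunit that pairs with ADAM2 in the endoplasmic reticulum of spermatogenic cells. Its FPKM was 219.1, 210.2, 235.0 and 232.5 in control and 203.0, 184.4, 182.6 and 191.6 in valine samples. The groups did not overlap, and the mean fell from 224.2 ± 11.7 to 190.4 ± 9.28 (SD, n = 4 per group; log2 change -0.23 ± 0.054 SE, limma adjusted p = 0.0337). The fall was larger with equal totals (-0.35, limma adjusted p = 0.00608). It was smaller and not called with the length trend taken out (-0.13, limma adjusted p = 0.258), and it did not pass with the replicate block (0.0727). With 1 sample left out it passed only without control replicate 2 or valine replicate 1, and the highest limma adjusted p was 0.0835. Adam1a is among the longest members (7508 bases of exon), and 63.7% of that length lies in exons of Gm42878 and 24.0% in exons of Mapkapk5 on the same strand in GENCODE vM21. Their own levels were low, at 0.397 and 1.93 FPKM. On the opposite strand exons of Tmem116, a gene at 13.5 FPKM, cover 11.3% of that length, and the strand setting was not given. How the authors' counting split reads among these overlapping genes is uncertain.

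The other ADAM transcripts were abundant and close to control. Adam1b, the fertilin alpha found on the sperm surface, had 202.5 to 228.4 FPKM in control and 180.4 to 217.1 FPKM in valine samples (log2 change -0.10, 95% interval -0.25 to 0.05). Adam2, fertilin beta, the partner of both alpha subunits, had 333.3 to 397.4 and 347.2 to 374.8 FPKM (change -0.009, -0.14 to 0.12). The ratio of Adam1a to Adam2 was 0.529 to 0.657 in control and 0.502 to 0.542 in valine samples (two-sided exact permutation p = 0.0857, adjusted 0.171 over the 8 pairs). Adam18, Adam3, Adam5 and Adam32 follow one another on chromosome 8 with 0 protein-coding genes between neighbours. Adam3, cyritestin, which sperm need to enter the oviduct and bind the zona, had 883.9, 939.2, 959.5 and 958.1 FPKM in control and 993.4, 935.5, 1000.5 and 950.5 FPKM in valine samples. The groups overlapped and the change was 0.053 (-0.05 to 0.15). Adam5 (change -0.02, -0.13 to 0.09) and Adam32 (0.034, -0.09 to 0.16) were similar in size of change, and Adam5 was called lower after quantile normalisation (-0.18, limma adjusted p = 0.0189). Adam18 (0.15, -0.00 to 0.30) passed only without control replicate 3 (limma adjusted p = 0.0364). Adam24, also on chromosome 8, had a change of -0.052 (-0.26 to 0.16).

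Ly6k had the smallest p of all members. LY6K is a GPI-anchored protein that pairs with TEX101 on germ cells, and both are needed for normal ADAM3 on sperm. Ly6k had 114.9, 110.0, 116.1 and 116.8 FPKM in control and 147.3, 139.0, 146.1 and 159.5 FPKM in valine samples. The lowest valine sample stood well above the highest control sample, and the mean rose from 114.4 ± 3.07 to 148.0 ± 8.49 (SD, n = 4 per group; log2 change 0.37 ± 0.0511 SE, limma adjusted p = 0.00633). The rise passed in all 8 fits with 1 sample left out (limma adjusted p at most 0.0253). An antisense gene, Gm17189, covers 47.6% of the exon length of Ly6k and was at 0.777 FPKM. Tex101 had 178.9, 197.6, 172.2 and 220.7 FPKM in control and 267.2, 230.5, 227.5 and 226.4 FPKM in valine samples. Its groups did not overlap, yet it did not pass (log2 change 0.31 ± 0.0888 SE, limma adjusted p = 0.0684) except without control replicate 4 (0.0338). The ratio of Ly6k to Tex101 was 0.529 to 0.674 in control and 0.551 to 0.705 in valine samples (two-sided exact permutation p = 0.629, adjusted 0.719 over the 8 pairs).

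Of the 5 protease genes, counting the convertase Pcsk4, only Prss21 passed. Prss21, testisin, is a GPI-anchored serine protease of sperm. It had 55.0, 61.2, 55.0 and 48.9 FPKM in control and 68.2, 72.6, 77.2 and 62.5 FPKM in valine samples (log2 change 0.35 ± 0.0857 SE, limma adjusted p = 0.0434). The groups did not overlap, although the highest control sample was at 61.2 and the lowest valine sample at 62.5 FPKM. Prss21 kept its call with the replicate block (limma adjusted p = 0.04) but not with equal totals (0.163), quantile normalisation (0.129) or the length trend removed (0.0655), and with 1 sample left out it passed only without control replicate 2 or valine replicate 4 (otherwise up to 0.102). Prss37, a protease-like protein needed for ADAM3 processing, spread widely, with 320.8, 287.7, 274.9 and 342.7 FPKM in control and 384.7, 324.9, 252.3 and 454.6 FPKM in valine samples. Valine replicate 3 was its lowest and valine replicate 4 its highest sample, and the change was 0.18 (-0.20 to 0.56). Prss55 (0.18, -0.03 to 0.39), Pcsk4, a proprotein convertase of germ cells (0.072, -0.08 to 0.22), and Tmprss12 (0.058, -0.06 to 0.18) did not pass.

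Among the members listed as fusion factors only Izumo4 rose, while Izumo1, which binds JUNO on the egg, did not pass. Izumo4 had 84.9, 79.9, 79.1 and 80.3 FPKM in control and 106.2, 104.0, 108.1 and 92.7 FPKM in valine samples. All valine samples lay above all control samples, and the mean rose from 81.1 ± 2.61 to 102.7 ± 6.88 (SD, n = 4 per group; log2 change 0.34 ± 0.058 SE, limma adjusted p = 0.0128). It passed in all 8 fits with 1 sample left out and with the length trend taken out (limma adjusted p = 0.0153). It did not pass with equal totals (0.0749) or quantile normalisation (0.0653). Izumo1 had 71.5, 75.2, 81.7 and 85.2 FPKM in control and 85.8, 77.3, 72.9 and 83.5 FPKM in valine samples, and the 2 groups covered almost the same range (change 0.027, 95% interval -0.14 to 0.20). The ratio of Izumo4 to Izumo1 was 0.943 to 1.19 in control and 1.11 to 1.48 in valine samples (two-sided exact permutation p = 0.0571, adjusted 0.152 over the 8 pairs). Izumo2, the most abundant of the family at 296.2 FPKM, had a change of 0.26 (0.06 to 0.45, limma adjusted p = 0.104), and passed only without valine replicate 3 (0.0497). Izumo3, whose groups did not overlap, had a change of 0.20 (0.05 to 0.34, limma adjusted p = 0.09).

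The members listed as fusion factors outside the Izumo family were Spaca6, Tmem95, Dcst1 and Dcst2. Their products are needed for fusion, and none of these genes passed. Spaca6 was low, at 18.6 to 21.0 FPKM in control and 19.7 to 24.8 FPKM in valine samples (change 0.091, -0.10 to 0.28). The neighbours Dcst1 (change -0.04, -0.22 to 0.13) and Dcst2 (0.083, -0.12 to 0.29) encode membrane proteins that act together. Dcst2 was 1.97 to 2.21 times as high as Dcst1 in control and 2.21 to 2.46 times as high in valine samples (two-sided exact permutation p = 0.0571, adjusted 0.152). Tmem95 had the widest spread of any member, with 35.4, 37.8, 76.0 and 33.7 FPKM in control and 69.1, 87.9, 67.0 and 37.8 FPKM in valine samples. Control replicate 3 was as high as the high valine samples and valine replicate 4 as low as the low controls, so its change of 0.53 was not resolved (95% interval -0.19 to 1.25, limma adjusted p = 0.332). Over all 36 members that did not pass, 33 had a 95% interval within 0.5 of 0 on the log2 scale. That bound is larger than any called change, the largest being 0.39 for Acrbp. Intervals within it can thus include changes as large as the called ones, and some, such as that of Izumo2 (0.06 to 0.45), exclude 0.

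Members with short transcripts tended to have the larger changes, as did short genes in general. All 19 members with an exon length under 2000 bases had a positive change (median 0.19), and 4 rose while 0 fell; of all 9052 tested genes of that length 68.3% were positive, 6.77% rose and 1.5% fell. Of the 26 longer members 17 had a positive change (median 0.057), 4 rose and 1 fell, whereas of all 12624 tested genes of that length 43.2% were positive, 2.68% rose and 6.61% fell. The medians over all tested genes were 0.14 under 2000 bases and -0.033 for longer ones. Across the 45 members the log2 change and exon length had a Spearman's rho of -0.492, and across 21676 tested genes with a length -0.339; genes share the same 8 libraries and are not independent. Acrbp (3277 bases), Izumo4 (2799 bases) and Crisp2 (2818 bases) rose without being short, whereas Ly6k (829 bases) and Spaca7 (979 bases) are short. With the length trend taken out the members' median was 0.08 and that of all genes 0.035.

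**Figure D3:**
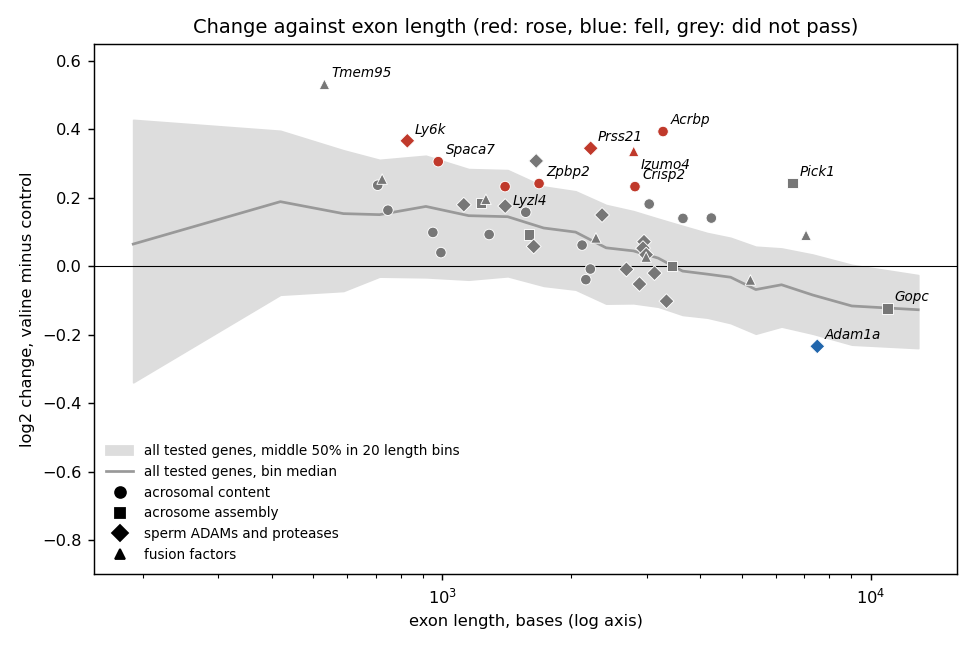
Log2 change of each of the 45 genes (vertical axis) against its exon length in bases (horizontal log axis), with marker shapes for the 4 roles, over the median (grey line) and middle 50% (grey band) of all tested genes in 20 length bins. The band slopes downward with length, most members lie inside it, and Acrbp, Izumo4, Prss21 and Crisp2 are among those above it at over 2000 bases.

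Single samples stood apart for groups of members. In the valine group replicate 3 was the lowest sample for 22 of 45 members, whose median exon length was 1402.5 bases, and the highest for 9, with a median of 2818 bases. Replicate 4 was the highest for 13 members, with a median of 1123 bases. Spaca4, Spaca9, Prss37, Lyzl6 and Eqtn were among the genes lowest in valine replicate 3. In the control group replicate 3 was the highest for 23 members and replicate 2 the lowest for 19. The summed FPKM of the 45 genes was 10537 to 11312 in control and 11457 to 12357 in valine samples. The coefficient of variation was 7.84% in control and 7.54% in valine samples at the median member, and above 15% in a group for 4 members (Tmem95, Prss37, Spaca9 and Spam1).

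**Figure D4:**
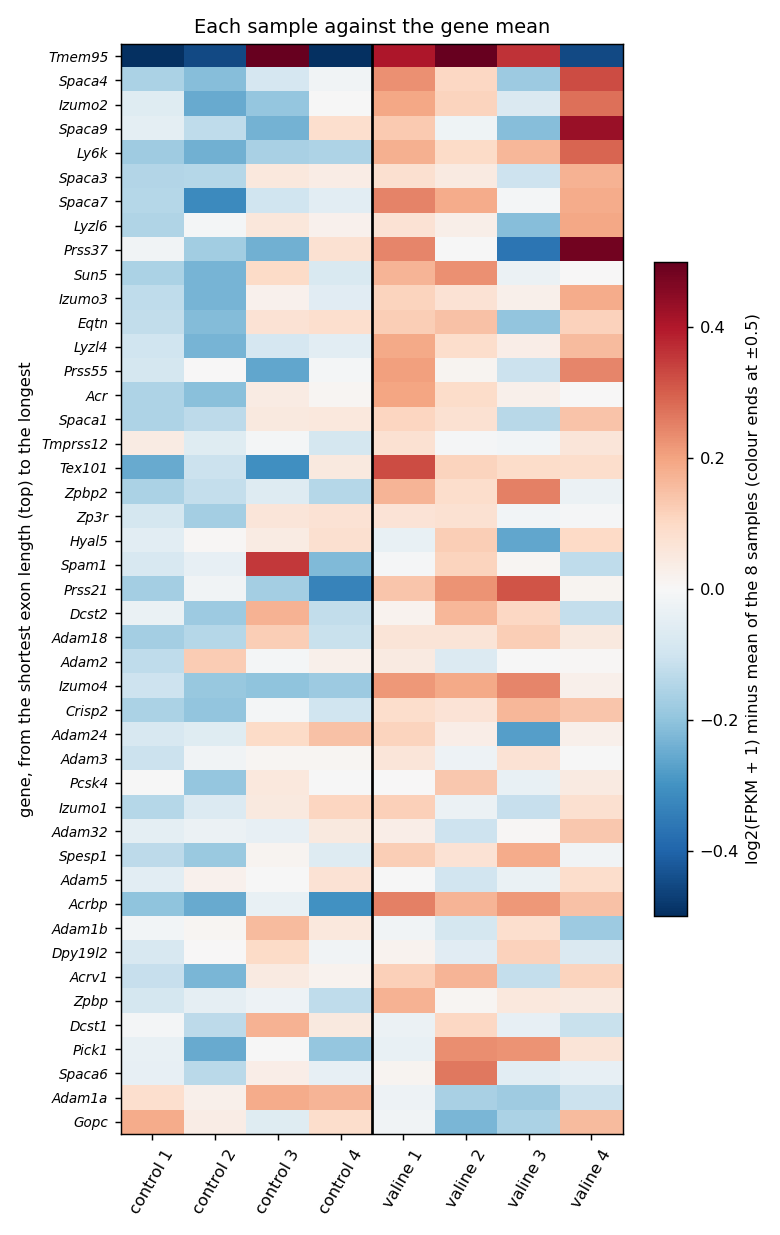
Log2(FPKM + 1) of each gene in each sample minus its mean over the 8 samples (colour, red above and blue below the mean, ends at ±0.5), with genes ordered from the shortest exon length at the top to the longest at the bottom. Short genes such as Prss37 and Spaca9 are red in valine replicate 4 and blue in valine replicate 3, and Adam1a near the bottom is the reverse of most genes.

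Promoters of 4 members are printed to show the sequence next to genes with different behaviour. Acrbp rose under every scaling and in every fit with 1 sample left out, Crisp2 was the most abundant member, Izumo1 did not change detectably and Adam1a was the one that fell. Each is the 250 bases before the annotated start site from RefSeq (GRCm38.p6, an older assembly than the authors'), 5′ to 3′ on the strand of the gene. Capitals mark matches, on either strand, to the cyclic AMP response element TGACGTCA, its half-site TGACG (which lies within the full element), the TATA box TATAAA, the CCAAT box CCAAT and the RFX half-site GTTGCC.
Acrbp, chr6:125049677-125049926, plus strand: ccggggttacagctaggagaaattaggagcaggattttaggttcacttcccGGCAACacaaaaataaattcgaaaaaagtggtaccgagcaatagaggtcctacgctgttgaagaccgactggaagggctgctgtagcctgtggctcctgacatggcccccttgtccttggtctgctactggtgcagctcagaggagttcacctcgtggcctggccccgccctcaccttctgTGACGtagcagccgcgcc
Crisp2, chr17:40794147-40794396, minus strand: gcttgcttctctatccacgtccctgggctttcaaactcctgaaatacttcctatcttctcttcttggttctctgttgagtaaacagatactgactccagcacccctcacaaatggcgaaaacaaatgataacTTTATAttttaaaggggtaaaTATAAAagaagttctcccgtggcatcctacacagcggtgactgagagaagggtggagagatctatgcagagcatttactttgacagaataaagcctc
Izumo1, chr7:45621561-45621810, plus strand: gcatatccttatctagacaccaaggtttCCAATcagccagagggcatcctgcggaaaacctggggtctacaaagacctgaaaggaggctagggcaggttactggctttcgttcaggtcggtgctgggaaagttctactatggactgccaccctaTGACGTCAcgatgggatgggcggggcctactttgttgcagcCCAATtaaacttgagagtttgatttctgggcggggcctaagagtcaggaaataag
Adam1a, chr5:121521696-121521945, minus strand: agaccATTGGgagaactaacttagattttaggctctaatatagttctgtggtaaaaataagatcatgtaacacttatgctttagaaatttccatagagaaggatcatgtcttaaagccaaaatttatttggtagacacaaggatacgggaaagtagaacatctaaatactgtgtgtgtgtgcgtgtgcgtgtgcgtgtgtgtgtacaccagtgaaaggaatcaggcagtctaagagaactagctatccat
The Acrbp window holds a TGACG beginning 18 bases before the start site and a reverse complement of GTTGCC at 199. The Izumo1 window holds a full TGACGTCA beginning 96 bases before the start and CCAAT at 222 and 55. The Adam1a window holds only the reverse complement of CCAAT at 245. The Crisp2 window holds TATAAA at 97 bases before the start and its reverse complement at 118. A window was found for 33 of 45 members (38 windows), Ly6k and Izumo4 not among them. TGACG was in 28.9% of member windows and in 17.8% of all 32851 windows, GTTGCC in 18.4% and 10.4%, CCAAT in 26.3% and 33.8%, TATAAA in 5.26% and 12.4%, and TGACGTCA in 2.63% (1 window, that of Izumo1) and 1.55%. These window shares count Spaca1 and Spaca3 with 2 overlapping windows each, which hold the same TGACG sites. They also count 2 windows of Pick1 with GTTGCC. By gene, TGACG was in 9 of the 33 members with a window and in 3 of the 6 of them that rose (Acrbp, Lyzl4 and Zpbp2). Lyzl4 had several windows and so more chances of a match. The same counts were 2 and 2 for TATAAA, 6 and 2 for GTTGCC, 10 and 1 for CCAAT, and 1 and 0 for TGACGTCA. A link between any motif and the rises was not tested. These matches are descriptions of letters, and no binding was measured.

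Other genes of the same pathways were described from 4 further lists. Over all tested genes 4.32% rose and 4.41% fell, and of those whose mean reached 100 FPKM 26.2% and 3.03%. Of 11 genes for the maturation and transport of ADAM3, 4 (36.4%) rose and 0 fell (0 fell also at an unadjusted limma p below 0.05). The median gene of that list was at 204.5 FPKM. Cmtm2a rose from 221.8 ± 8.63 to 289.8 ± 7.75 FPKM (SD, n = 4 per group; limma adjusted p = 0.00358) and Cmtm2b from 759.2 ± 17.6 to 967.6 ± 50.6 FPKM (limma adjusted p = 0.00561). Both kept their call with equal totals, quantile normalisation, the length trend removed and every sample left out; they are related genes, and reads could be split between them. Pmis2 (limma adjusted p = 0.0476) and Lypd4 (0.0405) rose too, but not with equal totals (0.143 and 0.13), nor in most fits with 1 sample left out (limma adjusted p up to 0.119 and 0.107). The chaperones Clgn (489.1 ± 15.5 and 492.4 ± 14.8 FPKM) and Pdilt (182.5 ± 10.3 and 193.7 ± 13.2 FPKM) and the peptidase Ace (304.2 ± 20.5 and 289.2 ± 23.7 FPKM) did not pass, but Clgn and Ace were called lower after quantile normalisation (limma adjusted p = 0.0351 and 0.0457).

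Of 12 other acrosomal proteins 4 (33.3%) rose and 0 fell (0 fell also at an unadjusted limma p below 0.05). Their median level was 187.5 FPKM. Among tested genes whose mean reached 100 FPKM 26.2% rose and 3.03% fell, against 4.32% and 4.41% of all tested genes. Spink2, an inhibitor of acrosin-type proteases, rose from 704.5 ± 28.9 to 881.2 ± 33.2 FPKM (limma adjusted p = 0.00658) and kept its call with every sample left out. Tmem190 (157.4 ± 13.2 to 204.2 ± 13.1 FPKM), Dkkl1 (1067 ± 52.0 to 1291 ± 70.3 FPKM) and Tmem210 (151.3 ± 7.39 to 183.1 ± 16.0 FPKM) also rose, of which Tmem190 alone passed with equal totals; with 1 sample left out Tmem190 and Dkkl1 passed in 5 of 8 fits and Tmem210 in 0 (limma adjusted p 0.0509 to 0.118). Of 16 tested genes of acrosome assembly outside the members, Spata16, Actrt2 and Tmf1 rose and Rimbp3 fell from 332.1 ± 9.57 to 282.2 ± 10.5 FPKM (limma adjusted p = 0.0156). The 3 rises did not pass with equal totals (limma adjusted p = 0.226, 0.139 and 0.268), where 2 genes of the list were lower, and the fall of Rimbp3 was not called with the length trend taken out (0.0684). Of 9 tested genes of fertilisation and exocytosis none passed in limma, while at an unadjusted p below 0.05 there were 2 higher and 3 lower. With equal totals 3 of the 9 were lower (9.16% of all tested genes). Those 3 were Nsf, Plcd4 and Vamp2 (limma adjusted p = 0.0335, 0.0226 and 0.04 with equal totals). Plcz1, the egg-activating phospholipase, had 285.5 ± 24.4 and 317.8 ± 36.4 FPKM and Llcfc1, a fusion factor, 627.3 ± 63.1 and 730.7 ± 48.4 FPKM.

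Markers of germ cell stages and of other testis cells were measured in the same samples. For scale, 4.32% of all tested genes rose and 4.41% fell. Of those whose mean reached 100 FPKM 26.2% rose and 3.03% fell. Of 12 round spermatid markers 2 rose and 0 fell (0 fell also at an unadjusted limma p below 0.05; median log2 change 0.15), and their summed level was 4096 to 4628 FPKM in control and 4846 to 5198 FPKM in valine samples. Of 15 elongating spermatid markers 11 rose and 0 fell (0 also at an unadjusted p below 0.05; median 0.32), with sums of 50132 to 52394 and 62938 to 75967 FPKM. With equal totals 0 of the round and 9 of the elongating spermatid markers were higher (1.64% of all tested genes). With quantile normalisation 0 and 3 were higher (1.80% of all tested genes). Of 13 spermatocyte markers 2 rose and 1 fell (median 0.12; sums of 5830 to 6108 and 6466 to 7153 FPKM), against 0 and 3 with equal totals. Of 10 spermatogonia markers 0 rose and 2 fell (3 higher at an unadjusted limma p below 0.05). The median log2 change of that list was 0.16, with 6 positive and 4 negative. Every valine sample lay above every control sample for 4 of them (8.99% of all tested genes). The reverse held for 2 (9.39% of all tested genes). The 2 that fell were Kit (log2 change -0.945, limma adjusted p = 0.00933) and Zbtb16 (log2 change -0.885, limma adjusted p = 0.0123). Both were called lower in all 8 fits with 1 sample left out. The sums, 184.9 to 206.8 FPKM in control and 206.7 to 220.1 FPKM in valine samples, weigh abundant genes most. Kit and Zbtb16 had means of 5.78 and 2.58 FPKM, against 93.6 FPKM for Dazl and 55.1 FPKM for Uchl1. Dazl and Uchl1 had positive log2 changes of 0.215 and 0.203 but did not pass (limma adjusted p = 0.0692 and 0.157). Of 8 Leydig cell markers 8 fell (median -1.91), with sums of 1601 to 2269 and 474.5 to 766.3 FPKM. Of 7 tested macrophage markers 3 fell (median -0.63, sums of 91.9 to 112.9 and 43.2 to 56.6 FPKM). At an unadjusted limma p below 0.05, 6 of these 7 were lower (11.8% of all tested genes). Of 12 Sertoli markers none passed in limma (1 higher and 1 lower at an unadjusted p below 0.05), with sums of 981.5 to 1107 and 976.8 to 1073 FPKM. Of 11 epididymis markers 9 had a mean below 1 FPKM, and the 2 others, Defb42 and Rnase10, did not pass. Single samples differed, with Crisp1 at 5.06 FPKM in control replicate 1 and 0.105 to 0.282 FPKM in the other control samples. Rnase10 ran from 1.89 to 9.34 FPKM in control and from 3.44 to 9.25 FPKM in valine samples. The part of these shifts in the changes of the acrosome genes was not tested. In whole testis a different number of cells of a type and a different amount of RNA per cell cannot be told apart.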

How the data were processed

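RNA from 4 control and 4 valine mouse testes was sequenced from Illumina TruSeq libraries, per the labels' protocols. The authors deposited FPKM values, aligned with HISAT2 to GRCm39 per the submitters' processing notes; for the aligner version, quantifier, annotation and strand setting the entry is: not given in the sources used here. Columns were matched to samples by group word or its abbreviation (VA read as valine) and replicate number, with 0 columns unused. No pair of samples held identical values. Symbols came from GENCODE vM21, which named 52081 of 55414 genes; exon length (union of exons) was found for 98.2% of tested genes. This annotation belongs to an earlier build (GRCm38) and was used also for exon overlaps and for which genes are neighbours; no gene coordinates are printed from it.

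Values were analysed as log2(FPKM + 1) with limma 3.58.1 in R 4.3.3 (treatment as the only term, mean-variance trend, two-sided, Benjamini-Hochberg over the 22077 genes whose mean reached 1 FPKM). The log scale slightly understates the change of low genes. Intervals are limma's 95% intervals, not adjusted. The fit was tested on simulated data. Alternatives changed the pseudocount, filter, scaling, length trend (loess, span 0.3), moderation, weights, replicate block and samples. Ratios of partner genes were compared by exact permutation tests. All 45 members could be named. Of the 12 other lists (139 of 140 genes matched) 4 were pathway lists. Genes of these called by the fit were named, at most 4 a list. Other genes of the pathway lists, and those named from the marker lists, were chosen after their values were seen. Members, lists and tests were chosen with earlier results of these data known. The labels give no batch.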

Additional observations from a re-analysis of the deposited data

Results flagged for a closer look

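In 90 sets of 4 samples (45 genes in each group), 3 held a sample whose gap to the nearest other sample, as a share of the range (0.894 to 0.904), exceeded Dixon's critical value; chance flags about 1 set in 20. Tmem95 was at 76.0 FPKM in control replicate 3, against 33.7 to 37.8 FPKM in the other control samples. Eqtn was at 181.4 FPKM in valine replicate 3, against 226 to 231 FPKM in the other valine samples. Tex101 was at 267.2 FPKM in valine replicate 1, against 226 to 230 FPKM in the others.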

How the results depend on the processing

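Of all tested genes 954 were higher and 974 lower. The higher count was 568 without an expression filter, 363 with equal totals, 398 with quantile normalisation, 503 without the mean-variance trend and 581 with the replicate block, and the lower count was 2022 with equal totals and 489 with the block. Leaving out 1 sample gave 381 to 795 higher and 461 to 802 lower. The 8 members higher became 3 without a filter, 2 with equal totals, 5 with equal medians, 2 with quantile normalisation, 4 with the length trend removed, 3 without the mean-variance trend and 5 with the replicate block (3 to 7 with 1 sample left out). The 1 member lower became 0 without a filter, with equal medians, with the length trend removed, without the mean-variance trend and with the block, and 2 with quantile normalisation (0 to 1 with 1 sample left out). The members' median log2 change of 0.14 became 0.024 with equal totals, 0.012 with quantile normalisation and 0.08 with the length trend removed (0.088 to 0.151 with 1 sample left out, lowest without control replicate 2). A pseudocount of 0.1, a minimum of 5 FPKM, robust moderation and array weights changed no member's call. Acrbp and Ly6k passed under every alternative run. Crisp2 reversed to -0.017 with quantile normalisation (limma adjusted p = 0.83). Members without a call changed sign in 13 cases with equal totals, 12 with quantile normalisation and 7 with the length trend removed. The labels do not pair the samples beyond a shared replicate number, and same-numbered samples' deviations correlated at -0.0401 to 0.111, so the pairing was not used; with the number as a block Spaca7, Zpbp2, Lyzl4 and Adam1a lost their call. The causes were not tested. Read depth was unknown, so counting error could not be given.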
